A study of Arabidopsis thaliana with 4 samples.

Results

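Peaks in long noncoding RNA (lncRNA) genes were taken from 4 peak lists of an APOLO chromatin isolation by RNA purification experiment (ChIRP-seq) in Arabidopsis thaliana. ChIRP-seq recovers the DNA that lies near a chosen RNA in crosslinked chromatin with biotinylated oligonucleotides complementary to that RNA. A member was a peak on chromosomes 1 to 5 whose summit lay inside a gene of the lncRNA biotype and inside no protein-coding gene. There were 1104 members among 107288 nuclear peaks, and they lay in 771 lncRNA genes. All plants were Col-0 that carried full-length APOLO driven by the 35S promoter, which is strong and active in most plant tissues, in the vector pB7WG2. They grew in long days of 16 h light and 8 h dark at 23 °C on half-strength MS medium, and neither tissue nor age is given in the labels. The ODD and EVEN probes are separate probe sets against APOLO, with 2 libraries for ODD (ODD 1 and ODD 2) and 1 for EVEN (EVEN 1). LACZ probes were the control, with 1 library (LACZ 1) from plants that carry the same transgene.

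LncRNAs are long transcripts without an evident protein product. Some act on the gene beside them, and others, APOLO among them, are known to act at distant loci. APOLO is transcribed beside the auxin kinase gene PID and is known to form R-loops, in which the RNA pairs with 1 strand of the DNA at its targets. The gene table used here lists the APOLO locus as protein-coding, so its own peaks are not members. The table gives no symbol other than the locus tag to any of its 3480 lncRNA genes, and its other name fields were not searched for them. No function is stated here for a member gene, and roles are given only for named neighbours.

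With 1 library for EVEN and for LACZ, no test across replicates was possible, and intervals given below are exact (Clopper-Pearson) 95% binomial intervals that cover counting error only. The fold enrichment of a peak is the authors' value, its pileup over a local background. Which library gave that background is not known here. Fold was used only to describe and rank peaks within a list. Depth is not given, and the local background is at most a rough guide to it. The lowest local background that the deposited values imply was 1.11 fragments in ODD 1, 6.55 in ODD 2, 2.81 in EVEN 1 and 6.23 in LACZ 1. The shortest peaks were 47, 94, 54 and 200 bp in the same order. ODD 2 held 58146 nuclear peaks against 12546 to 20470 in the other lists. LACZ 1 had the shortest list and a lowest background near that of ODD 2. A gene with a peak in ODD 2 alone may lack peaks elsewhere through depth or the length of the lists, and their part was not tested.

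In the lists as deposited, lncRNA genes took nearly the same small share of every list, the control included. Members were 169 of 16126 nuclear peaks in ODD 1 (1.05%, 0.897 to 1.22), 573 of 58146 in ODD 2 (0.985%, 0.907 to 1.07) and 225 of 20470 in EVEN 1 (1.10%, 0.961 to 1.25). In LACZ 1 they were 137 of 12546 (1.09%, 0.918 to 1.29). The 4 intervals overlapped. With −log10 q of at least 5 the shares were 1.1% in ODD 1, 1.03% in ODD 2, 1.64% in EVEN 1 and 1.41% in LACZ 1. The EVEN 1 and LACZ 1 shares then lay above the intervals given here, so the likeness of the lists depended on the threshold. A further 210 summits in ODD 1, 806 in ODD 2, 290 in EVEN 1 and 163 in LACZ 1 lay in an lncRNA gene that shares the position with a protein-coding gene, and these were not members.

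Per base, lncRNA genes held about as many summits as protein-coding genes and more than the chromosomes as a whole. The lncRNA sequence outside protein-coding genes came to 0.889 Mb. It held 190 ODD 1 summits per Mb, against 180 in protein-coding genes and 135 over the 5 chromosomes. For ODD 2 the densities were 645, 662 and 488 per Mb, and for EVEN 1 253, 246 and 172 per Mb, in the same order. LACZ 1 had 154, 141 and 105 per Mb. In every list lncRNA genes were denser than the chromosomes as a whole, and in ODD 2 they were slightly below protein-coding genes. In the chromosome arms alone, lncRNA genes fell slightly below protein-coding genes in every list, with 165 against 178 per Mb in ODD 1, 591 against 663 in ODD 2, 219 against 242 in EVEN 1 and 124 against 137 in LACZ 1.

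**Figure D1:**
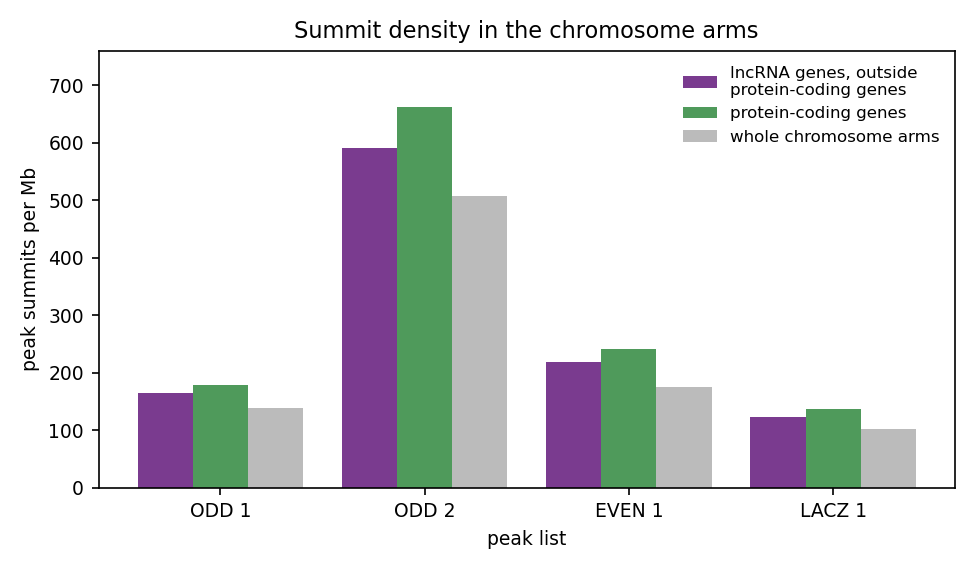
Peak summits per Mb in the chromosome arms for each list, in lncRNA genes outside protein-coding genes, in protein-coding genes and over the whole arms. In every list, LACZ 1 included, lncRNA genes lie between the whole arms and protein-coding genes, for example at 165 per Mb in ODD 1 against 138 and 178.

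Pericentromeres, the gene-poor stretches around the centromeres, held a larger share of members than of the lists. They held 30.8% (23.9 to 38.3) of ODD 1 members, 27.1% (23.5 to 30.9) of ODD 2 members, 31.1% (25.1 to 37.6) of EVEN 1 members and 35.8% (27.8 to 44.4) of LACZ 1 members. Over all nuclear peaks the shares were 23.7%, 22.2%, 23.5% and 27.5% in the same order, and pericentromeres held 20.4% of the lncRNA sequence. Chromosome 2 carries a copy of mitochondrial DNA in its pericentromere, which held 11, 9, 10 and 6 of the members. Without that copy the shares of members were 25.9% (19.3 to 33.5), 25.9% (22.3 to 29.7), 27.9% (22 to 34.4) and 32.8% (24.9 to 41.6), and the intervals for ODD 1, EVEN 1 and LACZ 1 then included the shares of their lists, 22.9%, 22.7% and 27%. The ODD 2 interval began just above its list's 22%.

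Member peaks were slightly stronger than the typical peak of their list. Their median fold was 5.08 in ODD 1, 3.71 in ODD 2, 3.62 in EVEN 1 and 3.18 in LACZ 1, beside list medians of 4.93, 3.44, 3.41 and 2.93. The strongest 10% of the EVEN 1 list held 19.6% (14.6 to 25.3) of EVEN 1 members, and 15.8% (11.2 to 21.4) of members without the mitochondrial copy. The same shares were 12.4% (7.86 to 18.4) in ODD 1, 13.1% (10.4 to 16.1) in ODD 2 and 13.9% (8.56 to 20.8) in LACZ 1, where the share of all peaks is 10% by definition. Median member widths were 116 bp in ODD 1, 172 bp in ODD 2, 100 bp in EVEN 1 and 264 bp in LACZ 1, near the list medians of 103, 181, 92 and 269 bp. The summit was within 1 kb of a protein-coding gene for 62.7% (55.0 to 70.0) of ODD 1 members, 56.7% (52.5 to 60.8) of ODD 2 members, 50.2% (43.5 to 56.9) of EVEN 1 members and 49.6% (41.0 to 58.3) of LACZ 1 members. The same share was not computed for other peaks of the lists. These values are therefore not read as a trait of members or as a difference between lists.

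Counted by gene, most lncRNA genes with a peak had it in a single list, and most of those were in ODD 2. Of the 3480 lncRNA genes, 927 lie wholly inside protein-coding genes and could hold no member. Of the other 2553, 771 (30.2%) held a member, and 474 of these in 1 list only. Genes that overlap each other share peaks, so that the 771 genes formed 667 separate loci. By list, 183 genes held a member in ODD 1, 602 in ODD 2, 240 in EVEN 1 and 154 in LACZ 1. Of the 27444 protein-coding genes, 33.7% held an ODD 1 summit, 78.7% an ODD 2 summit, 41.1% an EVEN 1 summit and 28.5% a LACZ 1 summit. The median lncRNA gene is 343 bp long and the median protein-coding gene 2078 bp, so these shares are not on the same footing.

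Set side by side at like length, the biotypes differed in some classes and lists and not in others. Among genes of 300 to 500 bp that overlap none of the other biotype, an ODD 1 peak was found in 8.86% (6.99 to 11) of 813 lncRNA genes and 8.28% (6.42 to 10.5) of 761 protein-coding genes. For EVEN 1 the shares were 11.8% (9.67 to 14.2) and 12.1% (9.86 to 14.6), and for LACZ 1 7.01% (5.35 to 8.99) and 6.04% (4.46 to 7.98). ODD 2 had 27.6% (24.5 to 30.8) and 32.1% (28.8 to 35.5). Among genes of 500 to 1000 bp, lncRNA genes had the lower share in ODD 2, at 45.4% (39.7 to 51.2) of 302 against 55.1% (53.3 to 56.9) of 2991. They also had it in EVEN 1, at 18.9% (14.6 to 23.8) against 27.3% (25.7 to 29.0). The ODD 1 and LACZ 1 intervals overlapped in that class, at 13.2% against 14.8% and at 14.9% against 14.0%. Among genes of 200 to 300 bp the EVEN 1 share was 5.02% (3.7 to 6.63) of 917 lncRNA genes against 10.5% (6.77 to 15.3) of 219 protein-coding genes, and in the other lists the intervals overlapped. Only 22 lncRNA genes had 1000 to 2000 bp. Their share was the higher one in ODD 1, at 54.5% (32.2 to 75.6) against 27.6% (26.6 to 28.6), while for LACZ 1 it was 45.5% (24.4 to 67.8) against 25.1% (24.2 to 26), with overlapping intervals. This class includes AT2G05205, AT2G05215 and AT2G05365 of the mitochondrial copy, which held members in every list. AT2G05205 and AT2G05215 have the same limits and share their peaks. The shares of this class were not recomputed without the copy.

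The patterns over the 4 lists were led by ODD 2. There were 323 genes with a member in ODD 2 alone, 93 in both ODD lists alone, 79 in EVEN 1 alone and 66 in ODD 2 and EVEN 1. A member in all APOLO-probe lists and none in LACZ 1 was found in 38 genes, which is 1.49% of the 2553, and 26 genes (1.02%) had a member in all 4 lists. LACZ 1 alone had 59 genes (2.31%). These counts depended on the libraries and the threshold. Without ODD 1, 104 genes had all remaining APOLO-probe lists and no LACZ 1, 41 had all lists and 416 had ODD alone, and without ODD 2, 94 had LACZ 1 alone. With −log10 q of at least 5 there were 9 genes in all APOLO-probe lists without LACZ 1, 8 in all lists and 39 in LACZ 1 alone. Of protein-coding genes, 20.4% had a summit in ODD 2 alone, 10.4% in both ODD lists alone, 2.40% in EVEN 1 alone, 11.6% in ODD 2 and EVEN 1, 10.6% in all APOLO-probe lists without LACZ 1, 8.33% in all lists and 1.86% in LACZ 1 alone. Among the other patterns, 35 lncRNA genes had ODD 2 and LACZ 1 (6.12% of protein-coding genes), 15 had ODD 2, EVEN 1 and LACZ 1 (7.36%) and 13 had ODD 1 alone (0.237%). EVEN 1 and LACZ 1 were found together in 11 (0.718%), both ODD lists and LACZ 1 in 6 (3.98%), ODD 1 and EVEN 1 in 5 (0.128%) and ODD 1 and LACZ 1 in 2 (0.0364%). No lncRNA gene had ODD 1, EVEN 1 and LACZ 1 without ODD 2, a pattern of 0.0619% of protein-coding genes. The percentages of protein-coding genes are given as a background and, with the difference in gene length, are not read as a difference between the biotypes.

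**Figure D2:**
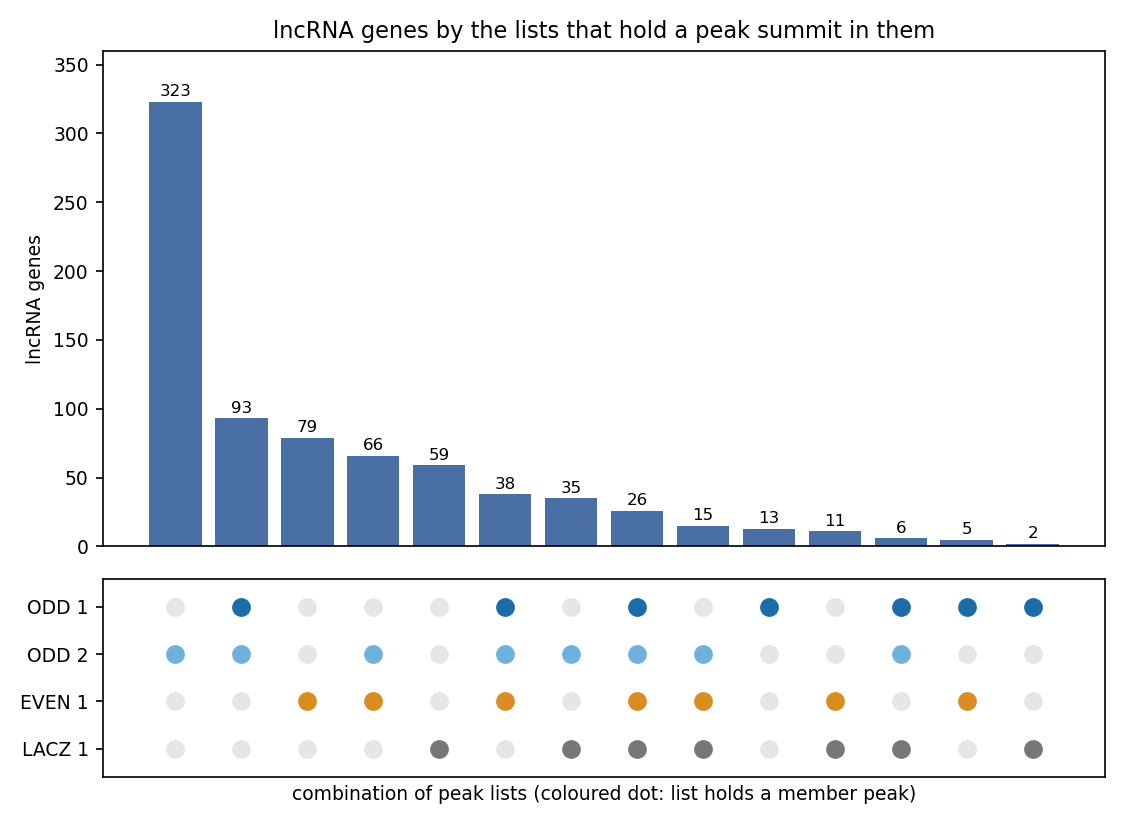
Number of lncRNA genes for each combination of lists with a member peak; bars give genes and coloured dots below mark the lists. ODD 2 alone has 323 genes, all APOLO-probe lists without LACZ 1 have 38, all 4 lists have 26 and LACZ 1 alone has 59.

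Nearly all ODD 1 members had a peak in the longer ODD 2 list, and most ODD 2 members had none in ODD 1. Of the ODD 1 members, 163 of 169 overlapped an ODD 2 peak (96.4%, 92.4 to 98.7), beside 94.8% of all nuclear ODD 1 peaks. The reverse share was 28.1% (24.5 to 32.0) of ODD 2 members, beside 24.7% of the ODD 2 list. With every list cut to the length of LACZ 1, the shares were 71.1% for ODD 1 members and 71.2% for ODD 2 members. By gene, 163 of the 183 ODD 1 genes also held an ODD 2 member (89.1%, 83.6 to 93.2), beside 98.6% of the 9242 protein-coding genes with an ODD 1 summit. Of the 20 that did not, 13 were touched by an ODD 2 peak whose summit fell outside the gene or inside a protein-coding gene. Over the 141 loci with members in both ODD lists, the highest fold had a Spearman correlation of 0.511 between the libraries, given as a description of points that share probes and genome position.

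**Figure D3:**
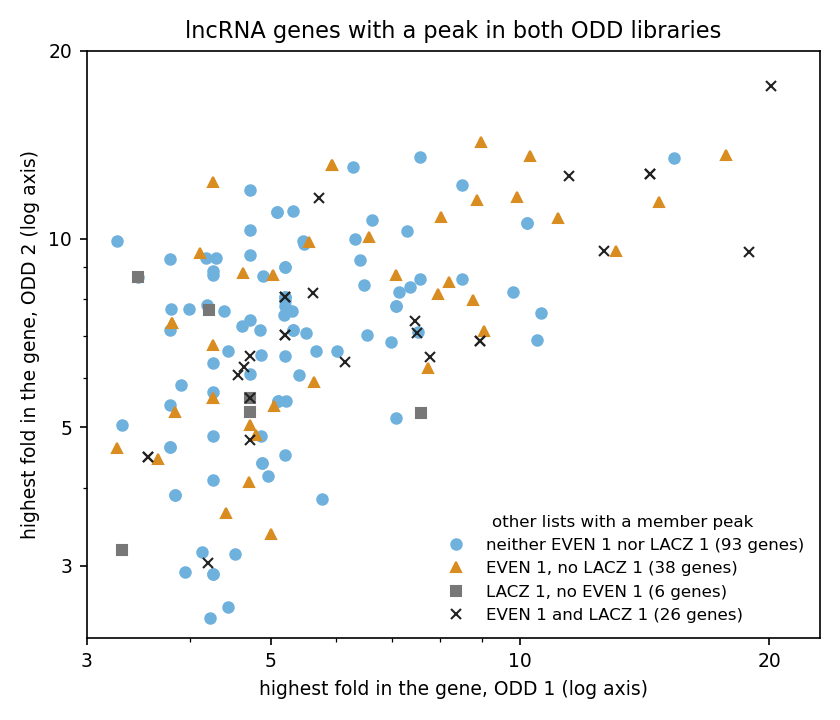
Highest fold of a member peak in each lncRNA gene with peaks in both ODD libraries, ODD 1 against ODD 2, both on log axes; symbols give the other lists with a member peak. The 6 genes with LACZ 1 and no EVEN 1 peak lie at ODD 1 folds up to 7.59, the other classes reach above 15, and the gene farthest to the upper right, AT2G07925, has peaks in EVEN 1 and LACZ 1 as well.

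In the lists as deposited, ODD 1 members overlapped EVEN 1 more often than the list did. With the mitochondrial copy kept, they also overlapped the control more often. The EVEN 1 share was 62 of 169 (36.7%, 29.4 to 44.4) beside 24.0% of all nuclear ODD 1 peaks, and the LACZ 1 share was 34 of 169 (20.1%, 14.4 to 27) beside 13.4%. Without the mitochondrial copy these shares were 32.3% and 15.2% of 158 peaks. No intervals were computed for them, and the list shares beside them keep the copy. Of the EVEN 1 members, 27.6% (21.8 to 33.9) overlapped ODD 1 beside 19.1% of the list, and 24.7% did without the mitochondrial copy. Their LACZ 1 share, 22.2% (17 to 28.2), had an interval that included the 18.6% of the list, and it was 19.1% without the copy. Their overlap with ODD 2, 60.0% (53.3 to 66.5), was close to the 59.5% of the list. For ODD 2 members the share was 22% (18.7 to 25.6) in EVEN 1 beside 19.1%, and 12.9% (10.3 to 15.9) in LACZ 1 beside 13.0%.

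For LACZ 1 members the shares were 20.4% (14.0 to 28.2) in ODD 1, 51.8% (43.1 to 60.4) in ODD 2 and 33.6% (25.7 to 42.1) in EVEN 1, beside 15.6%, 56.0% and 26.6% of the LACZ 1 list. Each of these intervals included the share of the list. ODD 1 members were also divided by fold. Of those ranked in the first 50% of their list, 48.4% (37.7 to 59.1) overlapped EVEN 1 and 25.3% (16.7 to 35.5) LACZ 1, whereas among the weaker members the shares were 23.1% (14.3 to 34.0) and 14.1% (7.26 to 23.8). The intervals for EVEN 1 did not overlap, and those for LACZ 1 did. This division kept the mitochondrial copy, whose ODD 1 members all had folds of at least 5.02, above the list median of 4.93. Over all ODD 1 members, leaving out the copy lowered the shares to 32.3% in EVEN 1 and 15.2% in LACZ 1. The division by fold was not repeated without the copy. LACZ 1 members overlapped ODD 1 in 19 of 92 (20.7%, 12.9 to 30.4) among the stronger and 9 of 45 (20%, 9.58 to 34.6) among the weaker. Over all nuclear ODD 1 peaks the stronger ones had 32.3% in EVEN 1 and 15.8% in LACZ 1, and the weaker ones 15.8% and 11%.

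**Figure D4:**
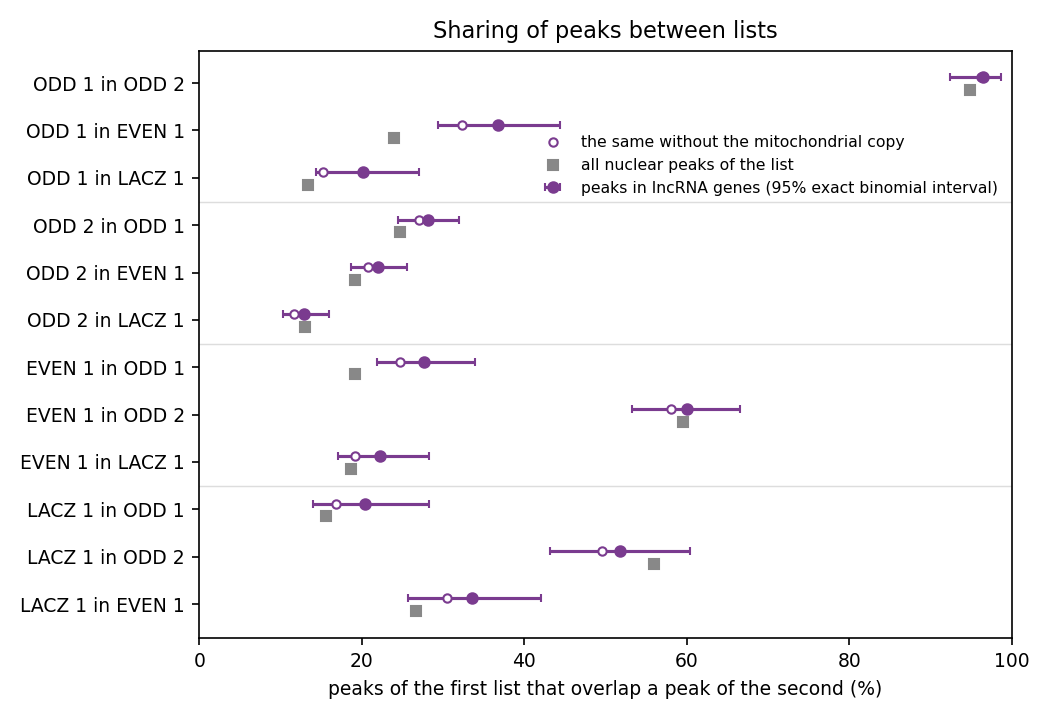
Percent of peaks of a list that overlap a peak of another list by at least 1 bp, for peaks in lncRNA genes with 95% exact binomial intervals, for the same peaks without the mitochondrial copy (open circles) and for all nuclear peaks of the list (squares). The largest gap is for ODD 1 peaks in EVEN 1, at 36.7% against 24.0%, and ODD 2 peaks in LACZ 1 lie on the share of their list, at 12.9% against 13.0%.

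The 38 genes with a member in ODD 1, ODD 2 and EVEN 1 and none in LACZ 1 were long for lncRNA genes, with a median of 591.5 bp, and formed 35 loci. In 34 of the 38 the peaks of the 3 lists overlapped in 1 place. The highest fold per gene ran from 3.26 to 17.7 in ODD 1 (median 5.61), from 3.38 to 14.3 in ODD 2 (8.35) and from 2.78 to 12.3 in EVEN 1 (3.76). A LACZ 1 peak touched 5 of the 38 genes with its summit elsewhere, and lay within 1 kb of 11. Pericentromeres held 10 of the 38, and 27 lay within 1 kb of a protein-coding gene.

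The gene of best rank in these 3 lists was AT3G09465, an lncRNA gene of 1171 bp on chromosome 3, 1166 bp from CYCP3;2, a gene of the P-type cyclins. In ODD 1 a fold of 14.7 was reached from 22377857 to 22378253 (TAIR10), with a −log10 q of 36.4. In ODD 2 the fold was 11.4 from 22377801 to 22378300, and the stronger of 2 EVEN 1 peaks reached 6.39 from 22377789 to 22378230. The peaks covered the same place in each APOLO-probe library, with widths of 397, 500 and 442 bp, and the nearest LACZ 1 peak was 15867 bp away. Within their lists they ranked in the first 0.992%, 1.86% and 2.99% by fold.

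AT1G05817 on chromosome 1 was second. It lies 172 bp from INO, which encodes a YABBY transcription factor of the outer ovule integument. EVEN 1 was strong here, with a fold of 12.3 at 8319597 to 8319925, the 61st highest of that list. ODD 1 had a fold of 13.0 at 8319601 to 8319921 and ODD 2 a single peak of 1008 bp with a fold of 9.55. Both ODD 1 and EVEN 1 held a second peak in the gene, with folds of 9.66 and 9.48. The control had no summit in the gene, but a LACZ 1 peak with a fold of 4.18 lay 240 bp outside the gene, at 8319151 to 8319423, with its summit in a protein-coding gene.

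AT4G05295, of 816 bp in a pericentromere of chromosome 4, had folds of 8.87 in ODD 1, 11.6 in ODD 2 and 4.73 in EVEN 1. Its peaks lay between 4841842 and 4842270, and it overlaps a gene of another RNA class, AT4G02875. AT5G18255, of 2023 bp on chromosome 5, had folds of 8.04 in ODD 1, 10.8 in ODD 2 and 6.04 in EVEN 1, at 6035797 to 6036014 in ODD 1. It overlaps the protein-coding gene AT5G18260, and in that shared part LACZ 1 had peaks with folds of 3.73 and 2.73. Absence from LACZ 1 therefore holds at AT5G18255 for the noncoding part of the gene.

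AT3G01195, 311 bp from VTC4, an ascorbate synthesis gene, had folds of 8.78 in ODD 1, 7.99 in ODD 2 and 4.22 in EVEN 1, and in ODD 1 it spanned 630508 to 630672 of chromosome 3. AT4G04895, in a pericentromere of chromosome 4, had folds of 7.75, 6.21 and 4.55 in the same order, at 2197964 to 2198101 in ODD 1. No LACZ 1 peak lay within 16521 bp of the first and 8897 bp of the second. AT4G09065 is 655 bp from CAT2, which encodes a catalase. Its folds were 7.09 in ODD 1, 8.74 in ODD 2 and 6.61 in EVEN 1, and EVEN 1 placed it among the first 2.61% of its list, from 16704144 to 16704368 of chromosome 4.

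The nearest protein-coding gene to AT3G05095 is the auxin receptor gene AFB2, at 2997 bp. ODD 2 gave a fold of 14.3, rank 105 of that list, from 9873743 to 9874102 of chromosome 3. The fold was 8.98 in ODD 1 and 3.94 in EVEN 1, where the peak ranked at 22% of the list. A LACZ 1 peak with a fold of 3.04 lay 409 bp from the gene. AT3G05445, with folds of 6.57 in ODD 1, 10.1 in ODD 2 and 4.46 in EVEN 1, and AT1G60505, with folds of 8.20, 8.55 and 3.86, complete the 10. AT1G60505 is 398 bp from the dynamin-related gene DRP4C and overlaps the pseudogene DRP4D.

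The highest ODD 1 fold among the 38 belonged to AT3G02895, outside the 10 because of its EVEN 1 rank, and it was chosen after its values were seen. ODD 1 had a fold of 17.7 at 4724777 to 4725005 of chromosome 3, rank 36 of its list, and ODD 2 a fold of 13.6. EVEN 1 had a fold of 3.68 at 4724883 to 4724994, at 31.9% of its list. Over the 61 loci with members in ODD 1 and EVEN 1, the Spearman correlation of the highest folds was 0.149, and it was 0.315 over 124 for ODD 2 and EVEN 1. These are descriptions of points that share genome position, as is the 0.484 over 42 for EVEN 1 and LACZ 1. Without the mitochondrial copy they were 0.0605, 0.290 and 0.340.

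**Figure D5:**
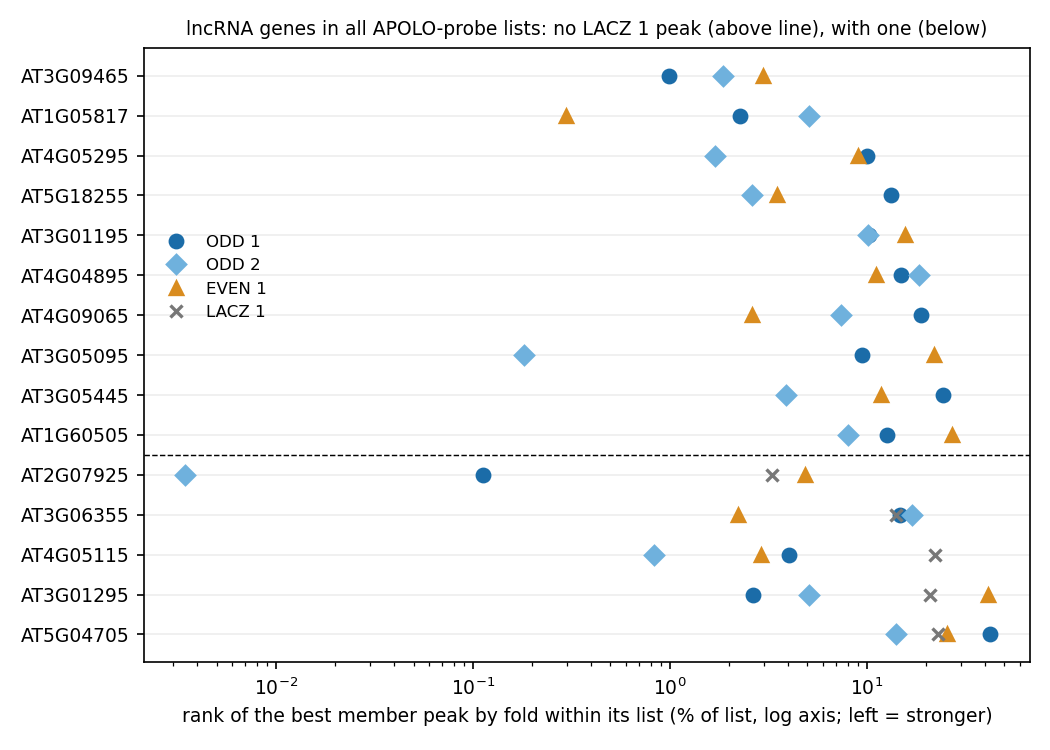
Rank by fold of the strongest member peak in each list, as a percent of the list on a log axis, for the 10 genes of best rank without a LACZ 1 member (above the dashed line) and the 5 with members in all 4 lists (below). AT2G07925 has the strongest ODD ranks, at 0.112% in ODD 1 and 0.00344% in ODD 2, and has a LACZ 1 peak at 3.30%.

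The strongest ODD peaks in any lncRNA gene were at a gene that the control also recovered. AT2G07925, of 276 bp on chromosome 2, lies 187 bp from ACL (AT2G23600). In ODD 2 it ranked 2 of the 58146 nuclear peaks, with a fold of 17.5 from 10041072 to 10041679. In ODD 1 it ranked 18, with a fold of 20.1 from 10041223 to 10041613. EVEN 1 had a fold of 5.52 at 10041389 to 10041592 and LACZ 1 a fold of 5.81 at 10041323 to 10041698, within the first 4.88% and 3.30% of their lists.

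The other genes with members in all 4 lists outside the mitochondrial copy numbered 20, and the 4 of best rank after AT2G07925 were as follows. AT3G06355 overlaps the ribosomal RNA gene AT3G41979 on chromosome 3 and had folds of 7.79 in ODD 1, 6.46 in ODD 2, 7.03 in EVEN 1 and 3.89 in LACZ 1. Its pileups, of 81, 135, 84 and 160 fragments, were high in all libraries, LACZ 1 included. AT4G05115, in a pericentromere of chromosome 4, had folds of 11.4, 12.6, 6.51 and 3.49 in the same order, and ODD 1 spanned 2724897 to 2725078.

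AT3G01295, of 351 bp, had folds of 12.6 in ODD 1, 9.57 in ODD 2, 3.54 in EVEN 1 and 3.56 in LACZ 1, with ODD 1 at 872992 to 873427 of chromosome 3. AT5G04705, which overlaps a second lncRNA gene, AT5G04715, in a pericentromere of chromosome 5, had folds of 5.2, 7.02, 3.92 and 3.46. Of all 26 genes with members in the 4 lists, 14 lay in pericentromeres (53.8%), against 10 of the 38 without a LACZ 1 member (26.3%), and 5 of the 14 belong to the mitochondrial copy.

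That copy, taken as the stretch of chromosome 2 between AT2G07640 and ABCC13, held the densest members. It contains 5 eligible lncRNA genes, and all 5 held members in all 4 lists. Together they held 11 ODD 1, 9 ODD 2, 10 EVEN 1 and 6 LACZ 1 peaks on 0.00344 Mb of sequence, which is 3190, 2610, 2900 and 1740 per Mb. The peaks were narrow in ODD 1 and EVEN 1, with median widths of 78 and 87.5 bp against 116.5 and 100 bp for other members, and in LACZ 1 wide, at 354.5 against 262 bp. Median folds were 6.49 in ODD 1, 5.77 in ODD 2, 6.86 in EVEN 1 and 4.46 in LACZ 1, against 4.98, 3.71, 3.59 and 3.12 for other members.

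AT2G05395, of 404 bp, had folds of 18.9 in ODD 1, 9.54 in ODD 2, 12.3 in EVEN 1 and 5.39 in LACZ 1, all with summits within 1 bp of 3509708. AT2G05155 had highest folds of 6.15 in ODD 1, 6.36 in ODD 2, 13.7 in EVEN 1 and 4.70 in LACZ 1. AT2G05205 and AT2G05215 have the same limits in the table and share every peak, with highest folds of 8.96, 6.87, 7.20 and 4.97 in the order of lists used above. AT2G05365 held 5 ODD 1, 3 ODD 2, 3 EVEN 1 and 1 LACZ 1 peaks in 1143 bp. Reads from the mitochondrial genome and from its nuclear copy cannot be told apart in these lists.

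Among the 93 genes with members in both ODD lists alone, the highest folds ran from 3.27 to 15.3 in ODD 1 (median 5.10) and from 2.48 to 13.5 in ODD 2 (7.56). An EVEN 1 peak touched 2 of these genes and a LACZ 1 peak touched 3, and 32 and 16 had such a peak within 1 kb. Low counts of touching peaks follow largely from the choice of genes without a member in EVEN 1 or LACZ 1. The gene of best rank was AT5G04745, in a pericentromere of chromosome 5 and 13015 bp from the nearest protein-coding gene. It had a fold of 15.3 at 10395218 to 10395457 in ODD 1 and of 13.5 at 10395203 to 10395649 in ODD 2. These ranked in the first 0.738% and 0.432% of the lists, and neither EVEN 1 nor LACZ 1 had a peak within 1 kb.

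AT1G06443 and AT1G06447 overlap and share their peaks, with a fold of 10.2 at 11300622 to 11300889 of chromosome 1 in ODD 1 and of 10.6 in ODD 2. AT1G07793 had folds of 8.51 in ODD 1 and 8.61 in ODD 2, and AT3G05295, which ties with it in ODD 1 rank, had 8.51 in ODD 1 and 12.2 in ODD 2. AT1G06687, with folds of 9.80 in ODD 1 and 8.21 in ODD 2, is 1 of the 2 genes touched by EVEN 1: a peak with a fold of 3.85 at 12199322 to 12199434 of chromosome 1 lay inside the ODD 1 peak at 12199270 to 12199574, with its summit outside the gene.

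EVEN 1 alone held 79 genes, with folds from 2.42 to 8.93 (median 3.39). AT5G08995, of 204 bp and 1445 bp from NAC100, a NAC transcription factor gene, had the highest, 8.93 at 24699367 to 24699556 of chromosome 5, within the first 1.07% of the list. AT5G05515 followed with a fold of 6.91 at 15007445 to 15007679. The third, AT4G05125, is counted here only because of where summits fell, since it overlaps AT4G05115 and peaks of the other 3 lists touch it. Of the 79 genes, 8 were touched by an ODD 2 peak, 2 by an ODD 1 peak and 1 by a LACZ 1 peak, low counts that follow largely from the choice of genes. Within 1 kb, 43 of the 79 had an ODD 2 peak, 19 an ODD 1 peak and 13 a LACZ 1 peak.

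LACZ 1 alone held 59 genes, with folds from 2.07 to 5.80 (median 3.11). AT2G06145, in a pericentromere of chromosome 2, had the highest fold, 5.80 at 6168589 to 6168917. AT2G04255 had a fold of 5.13 at 719556 to 719949, AT2G04605 one of 4.98, AT5G04405, 506 bp from the sugar transporter-like gene SFP1, one of 4.70, and AT1G04063, 391 bp from the potassium antiporter gene KEA1, one of 4.44. At AT1G04063 an ODD 2 peak with a fold of 2.68, at 292134 to 292311, lay inside the LACZ 1 peak and 73 bp outside the gene. At AT2G04605 an ODD 2 peak with a fold of 3.97 overlapped the LACZ 1 peak. An EVEN 1 peak with a fold of 6.83 lay inside that LACZ 1 peak, 18 bp outside the gene. No ODD 1 peak touched any of the 59 genes, while ODD 2 touched 5 and EVEN 1 touched 3. These low counts follow largely from the choice of genes without a member in those lists. Within 1 kb, 42 of the 59 had an ODD 2 peak, 14 an EVEN 1 peak and 12 an ODD 1 peak. No background share was computed for either set of counts.

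Of the genes with an ODD 1 member and no ODD 2 member, 7 also had EVEN 1 or LACZ 1. The 5 with EVEN 1 were AT1G04407, AT3G05995, AT4G05275, AT4G05900 and AT4G08845, with ODD 1 folds of 3.61, 4.93, 5.84, 4.08 and 5.03 and EVEN 1 folds of 3.37, 3.17, 4.46, 4.16 and 3.54. An ODD 2 peak touched 4 of the 5, the exception being AT4G05900. Of protein-coding genes, 0.128% had this pattern and 0.0364% had ODD 1 and LACZ 1 alone. The 2 lncRNA genes of the second kind were AT1G06197, with folds of 4.49 in ODD 1 and 2.33 in LACZ 1, and AT3G01665, beside the receptor-like protein gene RLP32, with 4.84 and 4.40. In both genes the ODD 1 and LACZ 1 peaks lay apart. An ODD 2 peak with a fold of 4.7, at 1644485 to 1644789, touched AT3G01665 and overlapped its ODD 1 and LACZ 1 peaks. None touched AT1G06197.

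Most peaks per gene outside the mitochondrial copy were found in AT2G24755, the longest gene described here at 7767 bp. It held 6 ODD 2, 1 EVEN 1 and 2 LACZ 1 members, with highest folds of 3.97, 3.15 and 2.90, and none in ODD 1. AT5G04705 had 6 members over the 4 lists. AT1G05817, AT1G06357, AT1G06963, AT1G07013, AT2G04205, AT4G05535 and AT5G08975 each had 5. Many peaks in a gene went with weak peaks at AT2G24755 and with strong ones at AT1G05817 and at AT2G04205, where the highest folds were 14.4 in ODD 1, 12.7 in ODD 2, 2.89 in EVEN 1 and 2.63 in LACZ 1. At AT4G05535 they were 4.57 in ODD 1, 6.06 in ODD 2, 7.74 in EVEN 1 and 7.92 in LACZ 1.

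Noncoding RNAs with a described role were looked up in a list of 24, of which 19 were found, 8 of them TAS genes, precursors of trans-acting small interfering RNAs. Of the 19, 3 held a summit in ODD 1, 6 in ODD 2, 7 in EVEN 1 and 1 in LACZ 1. The gene table gives the lncRNA biotype to 3 of the 19, and these 3 carry no symbol in it other than the locus tag. AT1G05913 held the only member, with a fold of 5.94 in ODD 2 from 8756470 to 8756635 of chromosome 1. AT5G01675 and AT1G69572 held no member, as their peaks have summits in protein-coding genes. At AT5G01675, on chromosome 5, the peaks of the ODD libraries coincided at 3174574 to 3174768 in ODD 1 (fold 6.89) and 3174521 to 3174796 in ODD 2 (fold 10.5), and again near 3179207 with folds of 5.2 and 6.71. EVEN 1 had a fold of 3.41 at 3179334 to 3179462, and LACZ 1 had no summit in the gene. At AT1G69572 all 4 lists had a peak, and the fold of LACZ 1 was 5.53.

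Of the 8 TAS genes, TAS1C alone held a summit, in EVEN 1 with a fold of 3.57, and none held one in ODD 1, ODD 2 or LACZ 1. GUT15, named for its unstable transcript, held an ODD 2 summit with a fold of 5.13. AT1G67105 held summits in ODD 2 and EVEN 1, with folds of 2.88 and 4.46. AT1G21529 and AT2G18735 held summits in EVEN 1 alone, with folds of 3.33 and 3.21. AT4G16355 and AT5G00580 held none. IPS1, a noncoding RNA of phosphate starvation that the table lists as protein-coding, held no summit in any list. AT5G03545, which the table also names AT4 and INDUCED BY PI STARVATION 2, held peaks in the 3 APOLO-probe lists, with folds of 4.19 in ODD 1, 3.99 in ODD 2 and 2.96 in EVEN 1, and none in LACZ 1. The peaks of ODD 1 and EVEN 1 were among the shortest of their lists, at 47 and 54 bp, and overlapped at 895150 to 895159 of chromosome 5.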

How the data were processed

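The 4 peak lists, 1 per library with no pooling, were used as deposited on TAIR10. CASAVA 1.8.2, Trimmomatic, Bowtie2 and MACS2 are named in the submitters' processing notes. How peaks were called, and against which control, was not given in the sources used here. The authors deposited for every peak, per the file headers, its pileup (a coverage signal), its fold enrichment (a ratio to local background) and −log10 p and q values, listed per library. Depth is unknown. The local background, derived from pileup and fold, is at most a rough guide to it, since its source library was not given.

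Gene limits, biotypes and names came from a RefSeq table of TAIR10.1, without strand, exons or sequence. Its fit to the files was checked by moving summits in 50 bp steps, up to 3000 bp: the share within 200 bp of a protein-coding gene's edge was lowest at shift 0 in 10 of 10 chromosome parts. A summit inside an lncRNA gene and no protein-coding gene made a member. Peaks were shared at 1 bp of overlap. Pericentromeres were 3 Mb on either side of the 1 Mb poorest in protein-coding genes. Summit placement and overlap were tested on simulated data (Python 3.11.15, pandas 2.3.3, scipy 1.17.1).

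For each gene the peak of highest fold per list was ranked within that list. The genes named were the 10, 5 and 5 whose weakest rank was best in the APOLO-probe lists without LACZ 1, in all lists and in both ODD lists alone, the 3 and 5 of best rank in EVEN 1 and LACZ 1 alone, and the 3 with most peaks. Genes of the mitochondrial copy were kept apart, and ties and genes of a count of 5 or fewer are named. Members and lists were chosen with earlier results of these data known. No p-value was computed. No genome sequence was used here, so no sequences are shown.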

Additional observations from a re-analysis of the deposited data

How the results depend on the processing

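No paired analysis was possible because the probe groups share only 1 replicate number and no test between groups was run. Of the results recomputed, none moved beyond its interval or by more than 1.5 times without the mitochondrial copy (20 results), with 200 bp summit windows (12 results) or with LACZ 1 peaks counted within 1 kb of a gene (4 results), where genes in all APOLO-probe lists without LACZ 1 became 27. Leaving out ODD 1 or ODD 2 gave 43 to 104 such genes, 26 to 41 in all lists, 61 to 94 in LACZ 1 alone and 106 to 416 in ODD alone. The shorter lists of the next settings hold fewer peaks by construction. With −log10 q of at least 5, lncRNA genes took 1.64% of EVEN 1 and 1.41% of LACZ 1, and 9 genes were in all APOLO-probe lists without LACZ 1, 8 in all lists and 39 in LACZ 1 alone. Shares of members shared became 98.9% for ODD 1 in ODD 2 and 28.9% in EVEN 1, 39.7% for EVEN 1 in ODD 1 and 31.0% in LACZ 1, 22.2% for ODD 2 in ODD 1, 9.14% in EVEN 1 and 7.41% in LACZ 1, and 41.3% for LACZ 1 in ODD 2 and 25.4% in EVEN 1. With lists cut to 12546 peaks, lncRNA genes took 1.16% of ODD 2, and the gene counts were 22, 16 and 101. Shares became 71.1% for ODD 1 in ODD 2, 30.7% for EVEN 1 in ODD 2, 71.2%, 28.1% and 17.1% for ODD 2 in ODD 1, EVEN 1 and LACZ 1, and 15.3% and 25.5% for LACZ 1 in ODD 2 and EVEN 1. With overlap by protein-coding genes allowed, the shares of the lists were 2.35% in ODD 1, 2.37% in ODD 2, 2.52% in EVEN 1 and 2.39% in LACZ 1. There were 83 genes in all APOLO-probe lists without LACZ 1, 58 in all lists and 181 in both ODD lists alone, and ODD 1 and EVEN 1 members shared 27.7% and 21.4% with each other. With an overlap of at least 50% of the shorter peak, 52.9% of EVEN 1 members were in ODD 2. The cause was not tested in the last 2 settings.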

Other observations

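Other noncoding genes outside protein-coding genes were set beside lncRNA genes. Genes of the ncRNA biotype held 249 summits per Mb in ODD 1, 530 in ODD 2, 207 in EVEN 1 and 103 in LACZ 1. Genes of the misc_RNA biotype held 199, 438, 218 and 122 per Mb in the same order. Pseudogenes held 112 per Mb in ODD 1, 519 in ODD 2, 157 in EVEN 1 and 152 in LACZ 1, and transcribed pseudogenes 159, 577, 252 and 189. LncRNA genes held 190, 645, 253 and 154. ODD 1 was thus below LACZ 1 in both kinds of pseudogenes, while ODD 2 and EVEN 1 were above it. These differences were not tested. The lists differ in length, and their depth is unknown.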
